A study of Mus musculus with 18 samples.

Results

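The writers, erasers and readers of DNA methylation were examined as 9 genes chosen by symbol from the 34620 genes counted in the ventral dentate gyrus: the DNA methyltransferases Dnmt1, Dnmt3a and Dnmt3b, the methyltransferase partner Uhrf1, the methylcytosine oxidases Tet1, Tet2 and Tet3, and the methyl-CpG binding proteins Mbd1 and Mbd2. All 9 passed the filter on low counts, alongside 17412 other genes. RNA-Seq was performed on the granule cell layer of adult male Swiss Webster mice, an outbred stock, at 8 to 12 weeks of age, with 2 libraries from each of 3 groups. Mice of all groups were genetically wild type for the serotonin 1A receptor gene and differed in the genotype of their parents or grandparents. WT mice came from a separate wild-type lineage bred in parallel. F1 mice were the wild-type offspring of heterozygous (5HT1A-/+) mothers and heterozygous fathers, and F2 mice were the offspring of F1 females and WT males, so that their mothers were wild type and their grandmothers 5HT1A-/+. The question was whether a receptor-deficient mother or grandmother was accompanied by a different level of these genes in the granule cells of wild-type descendants. The fathers of F1 and maternal grandfathers of F2 were heterozygous too, so maternal and paternal parts cannot be told apart. How many animals entered each library is not given in the sources used here, and p-values measure the spread between libraries, which may be partly technical.

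DNA methylation in mammals is placed mostly on cytosines that precede guanines (CpG sites). Dnmt3a and Dnmt3b methylate sites that carry no mark, whereas Dnmt1, guided to newly replicated DNA by Uhrf1, copies the mark onto the daughter strand. The TET enzymes oxidise methylcytosine, and base excision repair can then restore an unmodified cytosine. Methyl-CpG binding proteins recruit repressor complexes to methylated DNA. In the adult dentate gyrus most granule cells no longer divide, Dnmt3a is the main de novo enzyme of neurons, and methylation turnover has been linked to neuronal activity and to the birth of new granule cells.

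Between 26358165 and 33727936 reads per library were assigned to genes. Levels are given as CPM, the read count scaled to a common library size after normalization by the TMM method. The granule cell identity of the samples was checked with 8 marker genes, whose summed level was 1567 and 1516 CPM in WT, 1307 and 1577 in F1, and 1792 and 1704 in F2, with Prox1, the defining transcription factor of granule cells, at 228 to 345 CPM in every library. Of these markers, 1 of 8 was called lower in F1 and 1 in F2. Over all tested genes, 8.54% were called lower and 3.77% higher in F1, and 8.1% and 3.86% in F2. The mean summed levels of glial markers were higher in F1 and F2 than in WT. The summed level of 10 oligodendrocyte genes was 1136 and 2062 CPM in WT, 3103 and 2328 in F1, and 1604 and 3013 in F2. Of these genes, 4 of 10 were called higher in F1 and 2 of 10 in F2. The libraries of F2 and WT overlapped for 7 of the 10. The 8 astrocyte markers summed to 2441 and 2666 CPM in WT, 2981 and 3611 in F1, and 4052 and 3390 in F2, with 1 of 8 called higher in F1 and 5 of 8 in F2. The 8 microglial markers summed to 139 and 139 CPM in WT, 168 and 201 in F1, and 224 and 195 in F2, with 1 and 5 of 8 called higher. The 6 markers of oligodendrocyte precursors summed to 121 and 133 CPM in WT and to 166 to 206 in the other libraries, with 3 and 2 of 6 called higher. The 8 endothelial markers summed to 161 and 185 CPM in WT and to 190 to 219 in the other libraries, with 0 called in F1 and 1 in F2. The 12 markers of CA pyramidal, mossy and interneurons summed to 899 to 1229 CPM, with 2 called higher in each group. None of 12 proliferation and progenitor genes was called in F1 or F2 by the exact test at q under 0.01 (0 and 1 had an unadjusted p under 0.05), and their summed level was 120 to 144 CPM over the 6 libraries. Choroid plexus markers were near 0 except Kl, with Ttr at 0.187 to 1.10 CPM. Some of the reads considered for genes matched no gene under the counting rule. Their share was 17.7% and 20.7% in WT, 13.8% and 12.2% in F1, and 13.9% and 17.4% in F2. The part of these differences in the results below was not tested. In whole-tissue RNA, fewer cells of a type and less RNA per cell cannot be told apart.

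Dnmt3a was the only member to pass the test, and it fell in F1. Dnmt3a mRNA was at 93.8 and 86.5 CPM in the WT libraries, 68.5 and 65.2 CPM in F1, and 73.0 and 70.7 CPM in F2. All 4 libraries of the descendants lay below both WT libraries. Dnmt3a (chr12:3806007-3914443, plus strand, mm9) was 90.2 ± 5.17 CPM in WT and 66.9 ± 2.32 CPM in F1 (SD, n = 2), and the level fell by 25.9% (log2 fold change -0.43 ± 0.12 SE, 95% interval -0.66 to -0.21, adjusted p = 0.00239, edgeR exact test with Benjamini-Hochberg adjustment over 17421 genes). In F2 the mean was 71.8 ± 1.62 CPM and the log2 fold change from WT was -0.33 ± 0.12 (95% interval -0.56 to -0.10), with an adjusted p in edgeR of 0.0280, which missed the threshold of 0.01. F2 and F1 differed by 0.10 ± 0.12 on the log2 scale (95% interval -0.12 to 0.33, edgeR adjusted p = 0.956). The F1 call was lost under edgeR's quasi-likelihood test (adjusted p = 0.0126), without the filter on low counts (adjusted p = 0.0105), and when WT replicate 1 (adjusted p = 0.0655), F1 replicate 1 (adjusted p = 0.0116) or F1 replicate 2 (adjusted p = 0.0548) was left out, while the log2 fold change stayed between -0.48 and -0.37 in these and all other settings. At this threshold 12.3% of all tested genes were called in F1 (8.54% lower, 3.77% higher) and 12% in F2 (8.1% lower, 3.86% higher), so 1 called member of 9 in F1 is close to the share over all genes, and 0 of 9 were called in F2.

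Tet2 was lower in every F1 and F2 library without reaching the threshold. This oxidase (chr3:133126643-133207354, minus strand) was at 33.5 and 35.4 CPM in WT, 27.1 and 26.4 CPM in F1, and 28.6 and 27.3 CPM in F2. The 4 descendant libraries were again below both WT libraries. The log2 fold change was -0.37 ± 0.13 in F1 (95% interval -0.63 to -0.10, edgeR adjusted p = 0.0352) and -0.30 ± 0.13 in F2 (95% interval -0.57 to -0.04, adjusted p = 0.0932). The difference of F2 from F1 was 0.06 ± 0.14 (95% interval -0.20 to 0.33).

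Dnmt3b, the second de novo methyltransferase, was low, with 24 to 56 reads per library. It (chr2:153475186-153513466, plus strand) was at 1.65 and 1.65 CPM in WT, 0.792 and 1.07 CPM in F1, and 1.05 and 1.23 CPM in F2. No F1 or F2 library reached the WT level. Its log2 fold changes were the largest in size of the 9 genes, at -0.82 ± 0.33 in F1 (95% interval -1.46 to -0.19, edgeR adjusted p = 0.0534) and -0.54 ± 0.32 in F2 (95% interval -1.17 to 0.09, adjusted p = 0.254), and their intervals were also among the widest. The comparison of patterns took in 12329 genes averaging 100 reads or more, and the 3 whose log2 CPM followed Dnmt3b most closely over the 6 libraries were Pax6 (r = 0.992), a transcription factor of neural progenitors, Chd7 (r = 0.989), a chromatin remodeller, and Sun1 (r = 0.986), a nuclear envelope protein. Pearson's r exceeded 0.9 for 211 of these genes, and the values describe 6 libraries that share their group structure and glial marker levels.

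The promoters of the 3 members whose F1 and F2 libraries all lay below both WT libraries are shown with the CpG sites they carry. Taken apart, 30.6% of all genes lay lower without overlap in F1 and 32% in F2, and the joint share was not counted. Whether the encoded proteins act on sites in these promoters was not tested. The sequences are the 250 bases before a transcript start in RefSeq (GRCm38.p6). Each was found at a single place on its own chromosome in mm9, searched on the gene's strand, and held no annotated exon of its own gene. Other chromosomes and the exons of other genes were not searched. The sequences are written 5′ to 3′ on the gene's strand with every CG in capitals. The Dnmt3a window lies at chr12:3806730-3806979 (plus strand), inside the gene as annotated in mm9, the Tet2 window at chr3:133207355-133207604 (minus strand) and the Dnmt3b window at chr2:153474935-153475184 (plus strand), both directly before the annotated gene.
Dnmt3a: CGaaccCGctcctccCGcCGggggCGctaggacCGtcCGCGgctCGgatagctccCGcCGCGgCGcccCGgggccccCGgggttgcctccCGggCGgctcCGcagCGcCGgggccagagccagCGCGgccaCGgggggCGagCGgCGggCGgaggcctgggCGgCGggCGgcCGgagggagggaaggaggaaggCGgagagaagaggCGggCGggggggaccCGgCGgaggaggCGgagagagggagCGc
Tet2: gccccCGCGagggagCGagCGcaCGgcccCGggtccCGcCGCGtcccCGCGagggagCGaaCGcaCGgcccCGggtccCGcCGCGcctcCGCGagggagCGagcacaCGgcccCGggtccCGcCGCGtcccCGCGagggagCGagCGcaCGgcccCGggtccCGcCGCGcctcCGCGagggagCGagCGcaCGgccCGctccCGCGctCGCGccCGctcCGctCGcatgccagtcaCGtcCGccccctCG
Dnmt3b: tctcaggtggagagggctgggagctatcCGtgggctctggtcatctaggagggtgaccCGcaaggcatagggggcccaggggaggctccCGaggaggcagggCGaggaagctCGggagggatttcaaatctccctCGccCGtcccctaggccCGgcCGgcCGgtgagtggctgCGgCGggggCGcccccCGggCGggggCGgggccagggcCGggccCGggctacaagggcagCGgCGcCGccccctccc
The Tet2 window holds 51 CG dinucleotides, a number that only 0.0670% of 32841 RefSeq promoter windows of this length reach. The Dnmt3a window holds 38 (as many or more in 1.88% of windows) and the Dnmt3b window 21 (as many or more in 16.4%), against a median of 6, and 92.1% of windows hold at least 1. The windows examined covered 7 of the 9 members and 12 starts, and promoters of the methyl-CpG binding proteins were not examined. Those of Tet1 and Tet3 hold 15 and 17 CG. The 3 windows of Dnmt1 hold 2, 7 and 26 CG and the pair of Uhrf1 10 and 30. The Dnmt3a gene has 3 windows. The second, which overlaps the one shown, holds 40 CG (as many or more in 1.31% of windows), and the third, 84.8 kb downstream of the first, holds 15. Counts per gene do not tell which of these starts was used, and whether these CG were methylated was not analysed here.

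**Figure D1:**
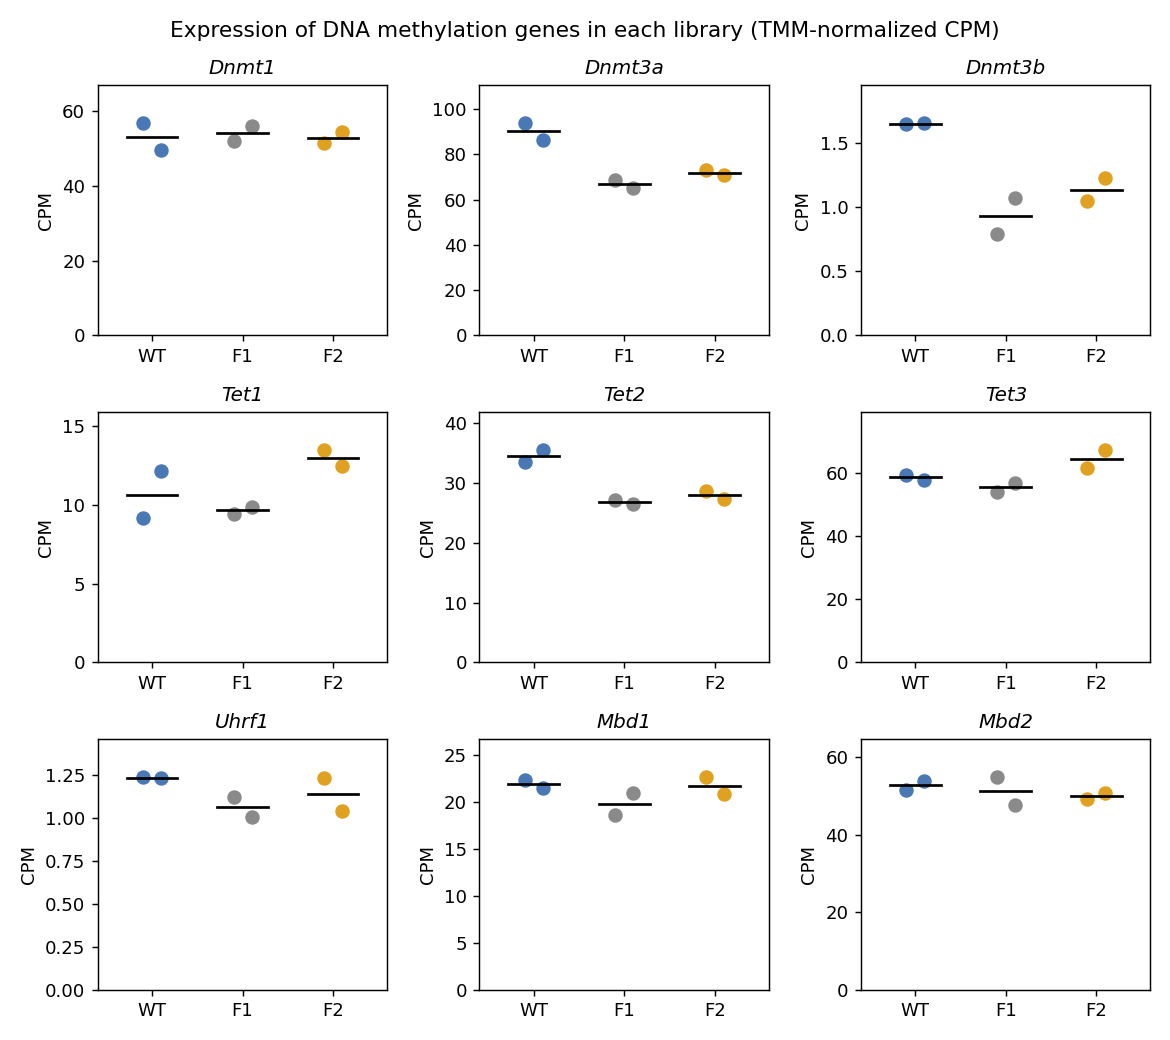
Each panel plots 1 gene, with TMM-normalized CPM on the vertical axis from 0 and the WT, F1 and F2 groups on the horizontal axis. Points are libraries and bars are group means (n = 2). For Dnmt3a, Tet2 and Dnmt3b the 4 F1 and F2 libraries lie below both WT libraries, whereas the Dnmt1 libraries of the 3 groups overlap at 49.5 to 56.8 CPM.

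Neither maintenance gene passed the test in any comparison. Dnmt1 (chr9:20711650-20757317, minus strand) was at 56.8 and 49.5 CPM in WT, 52.0 and 56.1 CPM in F1, and 51.4 and 54.4 CPM in F2. The libraries of each group fell within the span of the WT pair. The log2 fold change of Dnmt1 was 0.02 ± 0.13 in F1 (95% interval -0.22 to 0.27) and -0.01 ± 0.13 in F2 (95% interval -0.25 to 0.24), and its sign changed with the normalization. Uhrf1 (chr17:56442744-56462909, plus strand), which brings Dnmt1 to replicated DNA, was represented by 28 to 42 reads per library. Its level was 1.24 and 1.23 CPM in WT, 1.12 and 1.00 CPM in F1, and 1.23 and 1.04 CPM in F2. The wide intervals, -0.85 to 0.42 on the log2 scale in F1 and -0.76 to 0.53 in F2, leave room for changes larger than that of Dnmt3a. The ratio of Dnmt3a to Dnmt1 CPM, a description within each library, was 1.65 and 1.75 in WT, 1.32 and 1.16 in F1, and 1.42 and 1.30 in F2. It is not corrected for exon length, and per kilobase of exon Dnmt1 was the higher (10.1 against 4.58 CPM per kb over the 6 libraries).

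Neither Tet1 nor Tet3 passed the test in any comparison. Tet1 (chr10:62267318-62361866, minus strand) was at 9.15 and 12.1 CPM in WT, 9.44 and 9.88 CPM in F1, and 13.5 and 12.5 CPM in F2. The F1 libraries lay between the WT libraries, and both F2 libraries lay above all others. The log2 fold change from WT was -0.14 ± 0.19 in F1 (95% interval -0.51 to 0.24) and 0.29 ± 0.19 in F2 (95% interval -0.09 to 0.66), and F2 exceeded F1 by 0.42 ± 0.19 (95% interval 0.05 to 0.80, unadjusted p = 0.0285, edgeR adjusted p = 0.456). Tet3 (chr6:83312367-83391672, minus strand), the most abundant TET gene, was at 59.3 and 57.8 CPM in WT, 54.0 and 56.7 CPM in F1, and 61.7 and 67.2 CPM in F2. Its F1 libraries were the lowest pair and its F2 libraries the highest, without overlap of any group. The log2 fold changes were small, at -0.08 ± 0.12 in F1 (95% interval -0.31 to 0.15), 0.14 ± 0.12 in F2 (95% interval -0.09 to 0.37) and 0.22 ± 0.12 between F2 and F1 (95% interval -0.01 to 0.45, edgeR adjusted p = 0.628). Within libraries, Tet3 exceeded Tet2 by a ratio of 1.77 and 1.63 in WT, 2.00 and 2.15 in F1, and 2.16 and 2.46 in F2. The ratio of Tet1 to Tet2 was 0.273 and 0.343 in WT, 0.349 and 0.374 in F1, and 0.471 and 0.457 in F2.

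Readers showed no difference past the threshold. Mbd1, which binds methylated CpG and represses transcription, was at 22.3 and 21.5 CPM in WT, 18.6 and 21.0 CPM in F1, and 22.6 and 20.9 CPM in F2. Its F1 libraries were below the WT libraries and its F2 libraries straddled them. The log2 fold change was -0.15 ± 0.15 in F1 (95% interval -0.44 to 0.14) and -0.01 ± 0.15 in F2 (95% interval -0.30 to 0.28). Mbd2, a methyl-CpG binding subunit of the NuRD complex, was at 51.5 and 53.9 CPM in WT, 54.7 and 47.5 CPM in F1, and 49.1 and 50.6 CPM in F2. Its F1 libraries lay on either side of the WT pair and its F2 libraries below it, with log2 fold changes of -0.04 ± 0.12 (95% interval -0.29 to 0.20) and -0.08 ± 0.12 (95% interval -0.32 to 0.16).

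**Figure D2:**
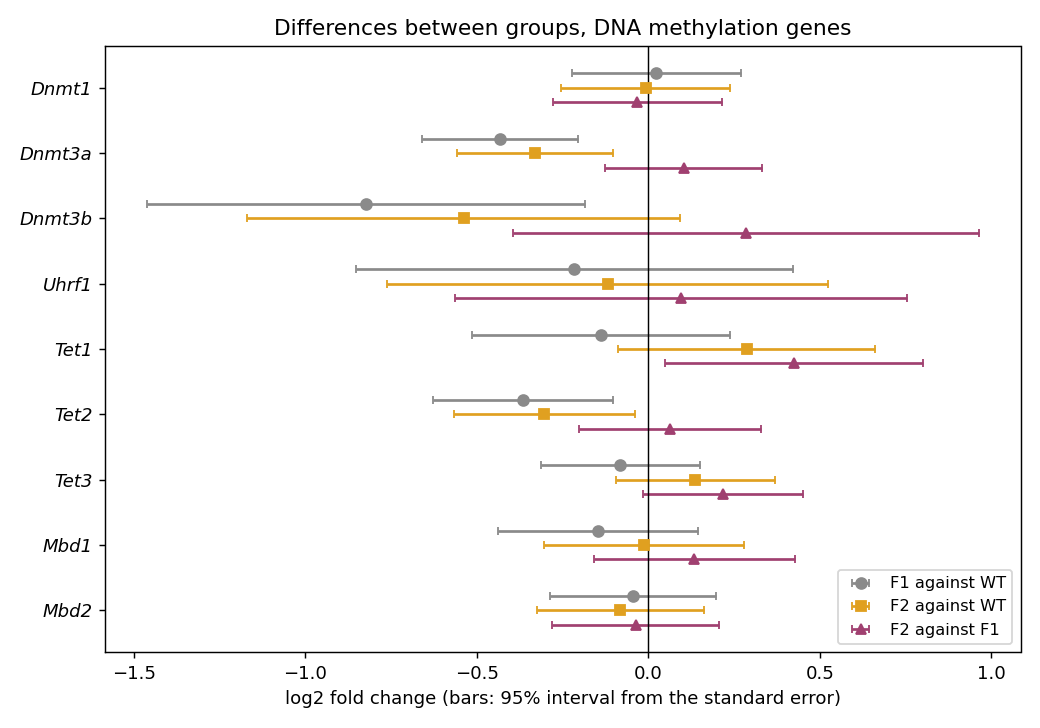
The horizontal axis gives the log2 fold change of each gene between groups, with bars for the 95% interval from its standard error, and colours and symbols mark the 3 comparisons. The Dnmt3a and Tet2 intervals lie below 0 for both F1 and F2 against WT, the Dnmt3b interval does so for F1 (-1.46 to -0.19), and the Dnmt1, Mbd1 and Mbd2 intervals include 0 throughout. F1 and F2 were compared with the same WT libraries.

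Over the 9 genes, the median log2 fold change was -0.15 in F1 and -0.08 in F2, beside 0.01 and -0.00035 over all genes tested. In F1, 1 of 9 was called lower and 0 higher, 8 did not pass, and 3 had an unadjusted p under 0.05. In F2, 0 of 9 were called by edgeR's exact test or by DESeq2, and 2 had an unadjusted p under 0.05. With the threshold at 0.05 the counts were 2 in F1 (Dnmt3a and Tet2) and 1 in F2 (Dnmt3a), beside 20.8% and 20.7% of all genes. Libraries of F1 and WT did not overlap for 6 members, all lower in F1, and those of F2 and WT for 6, of which 4 were lower and 2 higher. With 2 libraries a group such separation is common: it held for 60.4% of all genes in F1 (30.6% lower, 29.8% higher) and 63% in F2 (32% lower, 31% higher). Between F2 and F1, 0 of 9 members were called by edgeR or DESeq2, 1 (Tet1) had an unadjusted p under 0.05, and the median was 0.10. In that comparison 0.74% of all genes were called (1.32% at 0.05). The libraries of F2 and F1 did not overlap for 4 members, all higher in F2, as they did not for 39.1% of all genes (19.4% higher). Because F1 and F2 share the WT libraries, their differences from WT are not independent of each other.

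Levels were compared between the genes per kilobase of annotated exon, averaged over the 6 libraries. Mbd2 was the most abundant at 15.9 CPM per kb, followed by Dnmt1 at 10.1, Mbd1 at 7.30, Tet3 at 5.36, Dnmt3a at 4.58, Tet2 at 3.23, Tet1 at 0.754, Uhrf1 at 0.269 and Dnmt3b at 0.243. Neighbours in this order were separated in all libraries except Tet3 and Dnmt3a, and Uhrf1 and Dnmt3b, whose ranges overlapped. The span from Mbd2 to Dnmt3b was 65.7-fold. The order depends on the annotated exon length, which is 16642 bases for Dnmt3a and 14710 bases for Tet1.

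**Figure D3:**
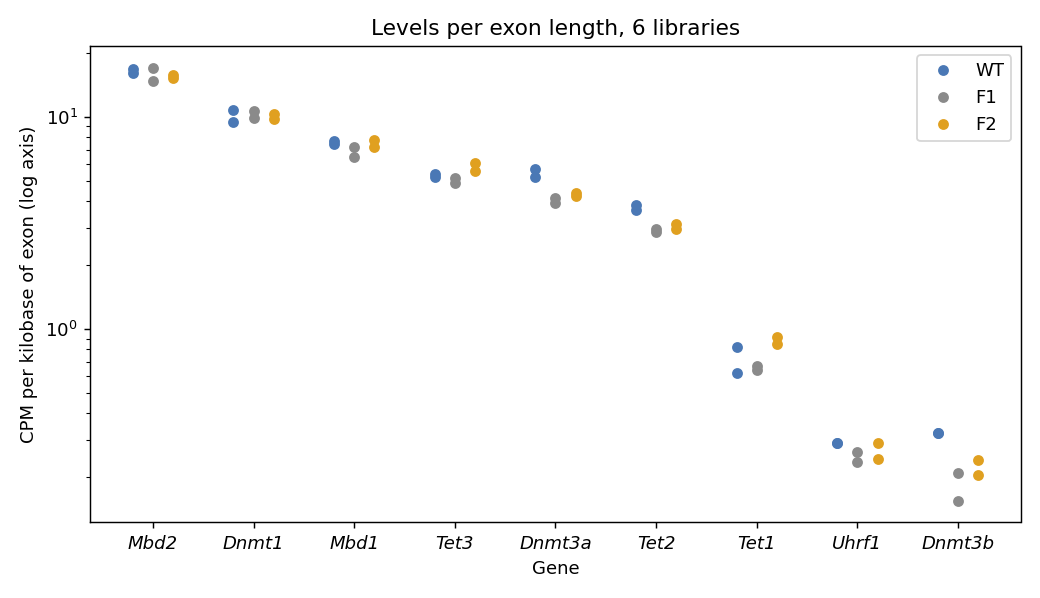
The vertical axis, which is logarithmic, gives CPM per kilobase of exon in each of the 6 libraries, coloured by group, and the horizontal axis orders the genes by their mean. Tet1, Uhrf1 and Dnmt3b lie below 1 CPM per kb in every library, and the remaining 6 genes lie at 2.87 or above.

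Other genes of the pathway were taken from 68 genes in 6 lists, of which 65 were tested. In F1, 6 of 65 were called, 1 higher and 5 lower, with a median log2 fold change of 0.08. In F2, 8 of 65 were called, 2 higher and 6 lower, with a median of 0.07. These shares are near the 12.3% and 12% over all genes. At q under 0.05 the counts were 10 and 17, beside 20.8% and 20.7% of all genes. Between F2 and F1, 0 of 65 were called by edgeR's exact test, beside 0.74% of all genes, and 4 had an unadjusted p under 0.05.

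Mbd6 and Zfp57 fell and were called in F1 and in F2 whichever library was left out. Mbd6, a relative of the methyl-CpG binding proteins, was at 102 and 78.1 CPM in WT, 39.7 and 31.0 CPM in F1, and 40.2 and 37.6 CPM in F2. It fell by 1.35 ± 0.16 in F1 (edgeR adjusted p = 4.02e-15) and by 1.21 ± 0.16 in F2 (adjusted p = 2.72e-12) on the log2 scale. Zfp57, a zinc finger protein that maintains methylation at imprinted regions, was at 24.1 and 22.0 CPM in WT, 12.8 and 10.3 CPM in F1, and 11.7 and 10.4 CPM in F2. It fell by 1.00 ± 0.17 in F1 (edgeR adjusted p = 4.35e-07) and by 1.06 ± 0.17 in F2 (adjusted p = 1.00e-07). For both genes, the WT libraries exceeded all F1 and F2 libraries.

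The list of demethylation and repair genes held base excision repair genes, the Gadd45 genes and a cytidine deaminase. In F1, 1 of its 14 tested genes was called, lower. In F2, 4 of 14 were called, 3 lower and 1 higher, beside 12.3% of all genes in F1 and 12% in F2. This list had the most calls of the 6 in F2, and each other list had 0 or 1. The glycosylase gene Neil1 was at 12.7 and 13.4 CPM in WT, 8.98 and 6.83 CPM in F1, and 7.10 and 7.42 CPM in F2. Neil1 fell by 0.72 ± 0.20 on the log2 scale in F1 (edgeR adjusted p = 0.00279) and by 0.85 ± 0.20 in F2 (adjusted p = 0.000402). The related Neil3 fell by 1.08 ± 0.30 in F2 (edgeR adjusted p = 0.00432), from 3.39 ± 0.338 to 1.60 ± 0.308 CPM (SD, n = 2), and its log2 fold change in F1 was -0.59 ± 0.29 (adjusted p = 0.133). The repair scaffold gene Xrcc1 fell by 0.50 ± 0.15 in F2 (edgeR adjusted p = 0.00726), and its log2 fold change in F1 was -0.37 ± 0.15 (adjusted p = 0.0542). The endonuclease gene Apex1 rose by 0.73 ± 0.19 in F2 (edgeR adjusted p = 0.00209), from 10.2 ± 1.47 to 17.0 ± 1.59 CPM, with a log2 fold change of 0.48 ± 0.19 in F1 (adjusted p = 0.0570). Of the annotated exon bases of Apex1, 61.7% overlap Tmem55b on the other strand, so its count is uncertain. Tdg, the glycosylase that removes oxidised methylcytosine, had log2 fold changes of 0.20 ± 0.18 in F1 and 0.18 ± 0.18 in F2, and the glycosylase Mbd4 of -0.09 ± 0.20 and 0.24 ± 0.20.

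Each of these calls was lost when some of the libraries were left out one at a time, which also removes replication, while every fold change kept its direction. In F1, Neil1 was no longer called without WT replicate 1 (edgeR adjusted p = 0.0297), WT replicate 2 (0.0565) or F1 replicate 2 (0.0901), with log2 fold changes of -0.92 to -0.53. In F2, Neil1 was lost without WT replicate 1 (0.0112), WT replicate 2 (0.0178), F2 replicate 1 (0.0433) or F2 replicate 2 (0.0209), and Neil3 without the same libraries in turn (0.0319, 0.0747, 0.180 and 0.0320). The log2 fold changes in F2 stayed at -0.88 to -0.79 for Neil1 and -1.28 to -0.89 for Neil3. Xrcc1 was lost without WT replicate 1 (0.185), F2 replicate 1 (0.222) or F2 replicate 2 (0.0332), and Apex1 without WT replicate 2 (0.0795), F2 replicate 1 (0.0978) or F2 replicate 2 (0.0130), with log2 fold changes of -0.60 to -0.37 and 0.60 to 0.89. Under edgeR's quasi-likelihood test the Neil1 call in F1 was lost (adjusted p = 0.0147). So were those of Neil3 (0.0263), Xrcc1 (0.0218) and Apex1 (0.0165) in F2. The Neil1 call in F2 held under that test (0.00791) but was lost when replicate number was added as a block (0.0125). With DESeq2, the Neil3 call was lost (adjusted p = 0.0310).

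Among the remaining lists, Idh1, which makes the cosubstrate of the TET enzymes, rose in F1 (log2 fold change 0.41 ± 0.13, edgeR adjusted p = 0.00951), from 29.8 and 32.1 CPM to 41.4 and 41.0 CPM, and stood at 33.7 and 33.1 CPM in F2 (0.11 ± 0.13, adjusted p = 0.593). Its call was lost when any of the 6 libraries was left out, the F2 libraries included (adjusted p = 0.0227 to 0.131), with log2 fold changes of 0.36 to 0.48. It was also lost under the quasi-likelihood test (adjusted p = 0.0201) and DESeq2 (adjusted p = 0.0115). Gatad2b, a NuRD subunit, rose by 0.74 ± 0.22 in F2 (edgeR adjusted p = 0.00645), from 11.7 and 12.3 CPM to 21.3 and 18.9 CPM, whereas the F1 libraries were at 11.2 and 18.6 CPM. That call was lost without WT replicate 1 (0.10), WT replicate 2 (0.0473), F2 replicate 1 (0.136) or F2 replicate 2 (0.0290), with log2 fold changes of 0.66 to 0.83, and under the quasi-likelihood test (0.0297).

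Of the other close relatives of the 9 genes described here, Uhrf2, Mbd3, Mbd5 and Dnmt3l were not called. Uhrf2, a relative of Uhrf1, was at 55.8 to 72.0 CPM over the libraries, with log2 fold changes of -0.11 ± 0.14 and -0.13 ± 0.14. Mbd3 and Mbd5 had log2 fold changes of 0.08 ± 0.12 and 0.11 ± 0.11 in F1 and of 0.05 ± 0.12 and 0.16 ± 0.11 in F2. Dnmt3l, the catalytically inactive partner of the de novo enzymes, had 2 to 13 reads per library, too few to show a difference.

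**Figure D4:**
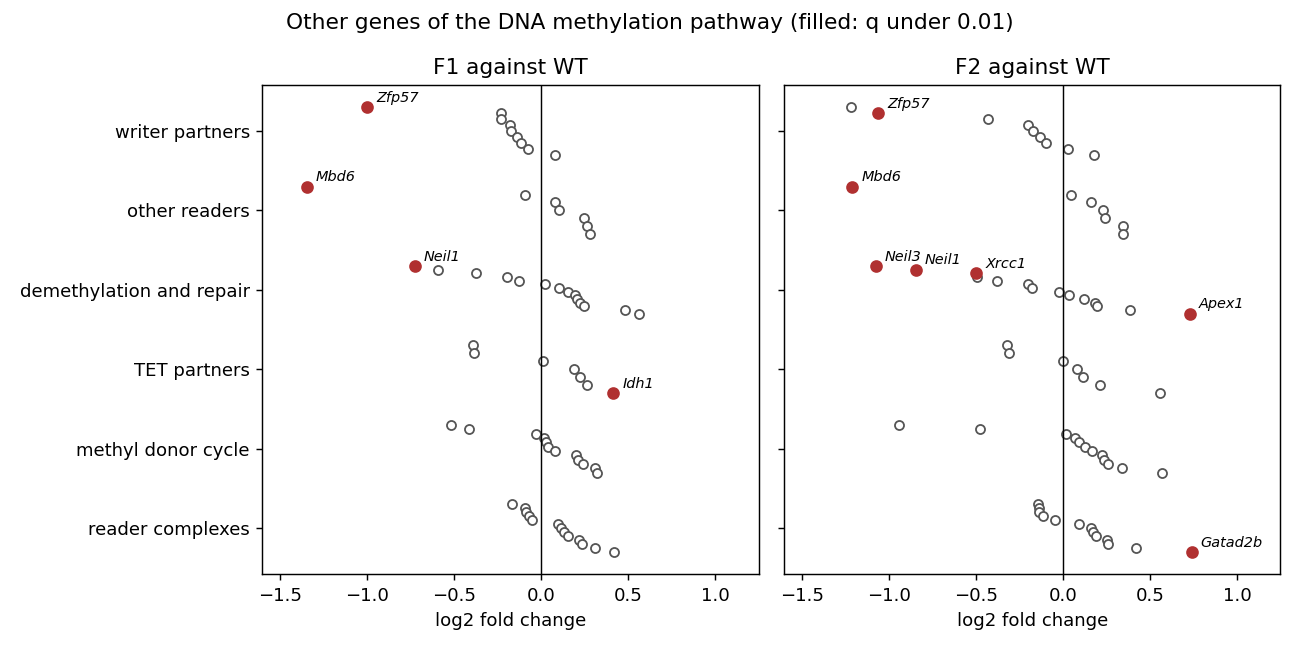
The horizontal axes give log2 fold changes of F1 (left) and F2 (right) from WT for 62 pathway genes, arranged by list, with filled points for genes called at an adjusted p under 0.01. Called genes shown number 4 in F1 and 7 in F2, and Mbd6 and Zfp57 lie among the leftmost points in both panels.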

How the data were processed

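The authors microdissected the ventral granule cell layer, sequenced polyadenylated RNA as single-end reads of 50 bp, aligned the reads to mm9 with TopHat and deposited raw HTSeq counts per gene (intersection-strict). Reads aligned to several places or shared between genes are absent from these counts. Whether counting used strand is not given in the sources used here, and 0.799% of the Dnmt3a exon bases overlap an antisense gene.

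Libraries were grouped by the labels. Genes were filtered with filterByExpr (17421 of 34620 kept), scaled with TMM factors and tested with the exact test of edgeR 4.0.16 in R 4.3.3, with common and tagwise dispersion over the 3 groups (common coefficient of variation 10.6%), Benjamini-Hochberg adjustment over all tested genes and a threshold of 0.01. The procedure was run on simulated counts with a common dispersion for all genes and planted changes larger than those of the members. That run does not assess changes of the members' size. SE follow from the dispersion by the delta method, and 95% intervals are 1.96 SE. Alternatives were other tests (DESeq2 1.42.0 included), normalizations, filters, GC and length offsets, replicate blocks and each library left out. All members were described, pathway genes where called in F1 or F2 or closely related to a member, and the 3 genes most like the member with the largest mean change. Members and lists were chosen with earlier results of these data known. Promoter sequences are from RefSeq. The bisulfite samples were not analysed here. Some genes the naming rule covers are not reported here, and the counts of genes include them.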

Additional observations from a re-analysis of the deposited data

How the results depend on the processing

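F1 members called fell from 1 to 0 under the quasi-likelihood test, the same with the replicate block, and no low-count filter, and were 2 at a threshold of 0.05 (F2, 1 instead of 0). Pathway calls (6 in F1, 8 in F2) were 3 and 4 under quasi-likelihood, 3 and 3 with its replicate block, and 10 and 17 at 0.05. The replicate 1 minus 2 differences showed no positive correlation between groups (-0.027, -0.083 and -0.182), so pairing by number was not seen. Whether libraries share a batch in another way was not tested. Over all genes, the block in the quasi-likelihood test gave 848 calls in F1 and 758 in F2, against 1029 and 997 without it. The likelihood-ratio test called 2253 and 2211 genes, 1743 and 1758 with the block, and 2679 and 2752 with F2 numbers crossed in the block, a choice made after seeing the data that gave 14 pathway genes in F2. Leaving out each library gave 0 to 1 members in F1, 3 to 7 pathway genes in F1 and 3 to 13 in F2, the 3s in F1 without WT replicate 1 or F1 replicate 2, those in F2 without either F2 library, and the 13s without either F1 library. Uncalled log2 changes turned sign for Dnmt1 in F2 (0.0057 with upper quartile scaling, 0.014 unfiltered), Dnmt1 in F1 (-5.08e-05 with library size alone) and Mbd1 in F2 (0.0094 unfiltered). Leaving out libraries, signs turned for Dnmt1 (-0.061 to 0.13 in F1, -0.093 to 0.10 in F2, -0.087 to 0.025 between them), Mbd1 in F2 (-0.065 to 0.050), Mbd2 in F1 (-0.14 to 0.062) and F2 against F1 (-0.13 to 0.067), Tet1 in F1 (-0.33 to 0.089), and Uhrf1 in F2 (-0.24 to 0.0058) and F2 against F1 (-0.028 to 0.21). The causes were not tested. Counts of 24 to 56 reads limit Dnmt3b and Uhrf1.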
